A study of Mus musculus with 5 samples.

Results

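The ligands, receptors and binding proteins of the insulin-like growth factor (IGF) system were followed as 10 genes across 5 Tag-seq libraries of the embryonic mouse heart. The genes are the ligands Igf1 and Igf2, the receptors Igf1r and Igf2r, the binding proteins Igfbp2, Igfbp3, Igfbp4, Igfbp5 and Igfbp7, and the protease Htra1. They were chosen by function, with earlier results of these data known. Each was measured through the sense tags that matched its transcripts and those of no other gene. They are 10 of 13489 genes with such a tag in any library, and all 10 had tags in at least 3 libraries. Hearts were taken at embryonic day 10.5 (Theiler Stage 17) and dissected by hand into regions. The atrioventricular canal (AVC), the outflow tract (OFT), the atria and the ventricles came from wild-type C57BL/6 embryos. The fifth library came from the AVC of Twist1 null embryos of the ICR strain, so genotype and strain cannot be told apart in any comparison with it. Each library pooled tissue from at least 3 litters, and there was 1 library per group.

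IGF1 and IGF2 are secreted growth factors that activate the receptor tyrosine kinase IGF1R. IGF2R binds IGF2 without starting a signal of its own and carries it to lysosomes, while the binding proteins hold IGFs in the extracellular space and can block or prolong their action. In the embryonic heart IGF signaling is known for driving proliferation, and the AVC and OFT are the regions where endocardial cells transform into the mesenchyme of the valve cushions.

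Tag-seq reads the 17 bases next to a CATG, the site of the enzyme NlaIII, on cDNA held by its poly(A) tail, so a full digest gives 1 tag per transcript from its 3'-most site. Values are tags per 1000000 high quality tags of a library (TPM), and intervals of 95% are exact Poisson intervals that cover counting error only, since PCR copies are not independent molecules. A TPM is not a length-corrected level, and digestion differs between sites, so levels are compared between libraries and not between genes. A gene was called when the edgeR exact test at the fixed dispersion of 0.12 gave an adjusted p under 0.05 over all genes. With 1 library per group the test compares libraries, not conditions, and has no replicate check.

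The libraries held between 4223810 (ventricles) and 12977237 (Twist1 null AVC) high quality tags, and a tag type had to be seen 6 times to be listed. Twist1, the targeted gene and a marker of cushion mesenchyme, stood at 918 TPM in AVC, 299 in OFT, 63.4 in atria, 55.9 in ventricles and 4.55 in Twist1 null AVC. The other 6 cushion mesenchyme markers summed to 829 TPM in AVC and 584 in OFT, and to 63.6 in atria, where Snai2 and Prrx1 were not listed, and 45.2 in ventricles, where Prrx1 was not. The 7 cardiomyocyte markers summed to 20217 TPM in AVC, 22521 in OFT, 7703 in atria, 22252 in ventricles and 18558 in Twist1 null AVC. Among them Tnnt2 had 3978 TPM in AVC, 198 in atria and 453 in ventricles, while Myl2 and Actc1 were highest in ventricles. Listed tag types per gene were 2.41 in AVC, 2.37 in OFT, 1.54 in atria, 1.57 in ventricles and 2.89 in Twist1 null AVC. Haemoglobin tags made up 21.5% of the atria, 4.67% of the ventricles, 2.73% of the Twist1 null AVC, and 0.242% and 0.307% of the AVC and OFT. The part of these differences in the results was not tested. In bulk tissue, fewer cells of a type and less RNA per cell cannot be told apart.

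Between each cushion-forming region and the chambers 6 of the 10 genes were called, and 5 after TMM normalization. Against the summed atria and ventricles, Igf1, Igf1r, Igf2r, Igfbp5 and Htra1 were higher in the AVC, and Igfbp2 was lower. In the OFT the same 5 genes and Igfbp7 were higher, and none was lower. In the AVC 5 of 10 members were thus called higher and 1 lower, where the test called 35.6% of 12506 genes higher and 5.53% lower. In the OFT 6 of 10 were called higher, against 34.2% of 12453 genes, with 6.77% called lower. These comparisons share the atria and ventricle libraries, so they are not separate evidence.

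The median gene also leaned toward the cushion libraries under library totals, with log2 ratios of 1.23 (AVC) and 1.07 (OFT), and this lean fell to 0.28 and 0.21 after TMM normalization. Relative to the median of its own scaling, each ratio of a gene with tags on both sides moved by less than 0.01. Under TMM the AVC had Igf1, Igfbp5 and Htra1 higher and Igf2 and Igfbp2 lower, where 19.4% of genes were called higher and 11.9% lower. In the OFT, TMM left Igf2r, Igfbp5 and Htra1 higher and called Igfbp2 and Igfbp3 lower, with 20.1% and 12.1% of genes in the background.

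**Figure D1:**
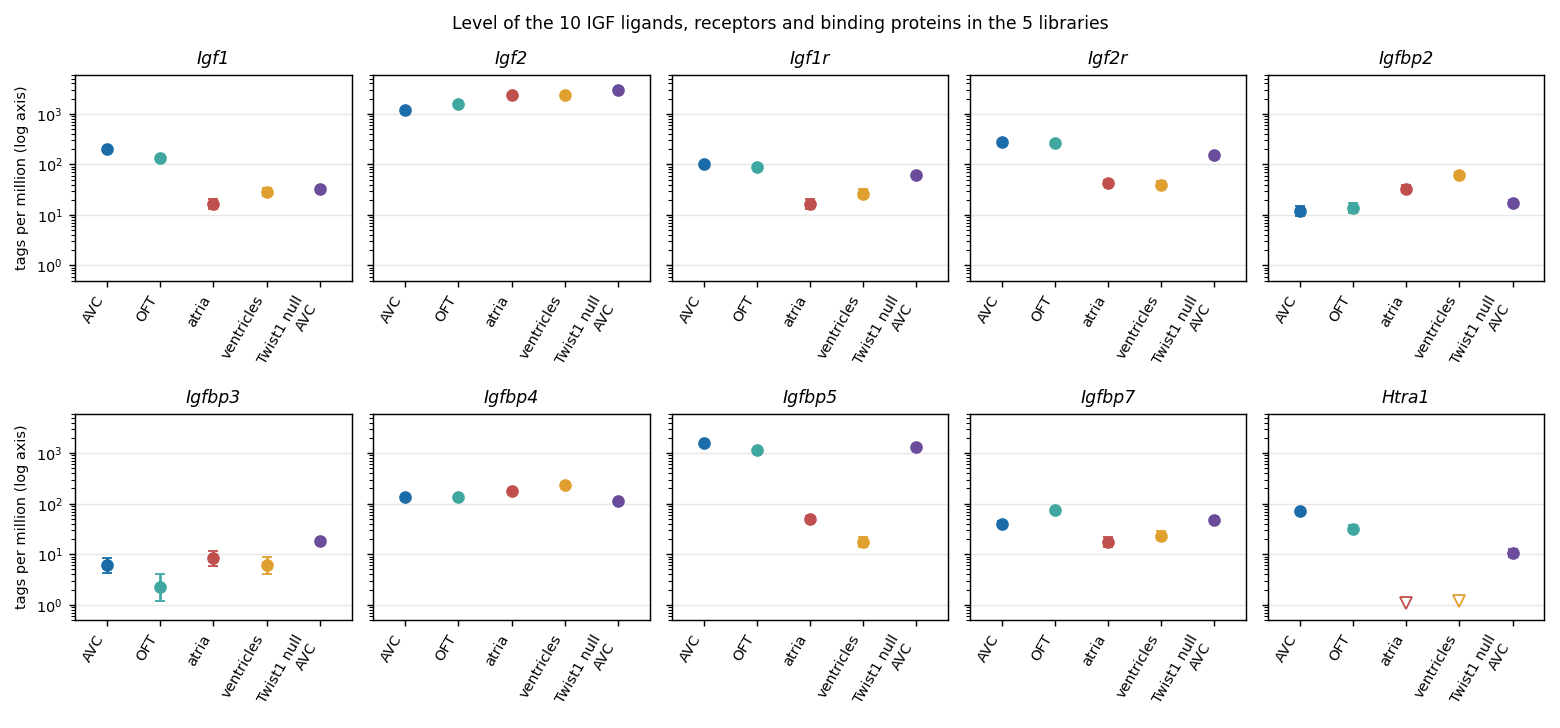
Level of each gene in the 5 libraries, in TPM on a log axis, with exact Poisson 95% intervals of counting error (often smaller than the point). Open triangles mark libraries without a listed tag, drawn at the level of 5 tags; Igfbp5 falls from 1559 TPM in the AVC to 17.5 in the ventricles, while Igf2 rises from 1207 to 2332.

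**Figure D2:**
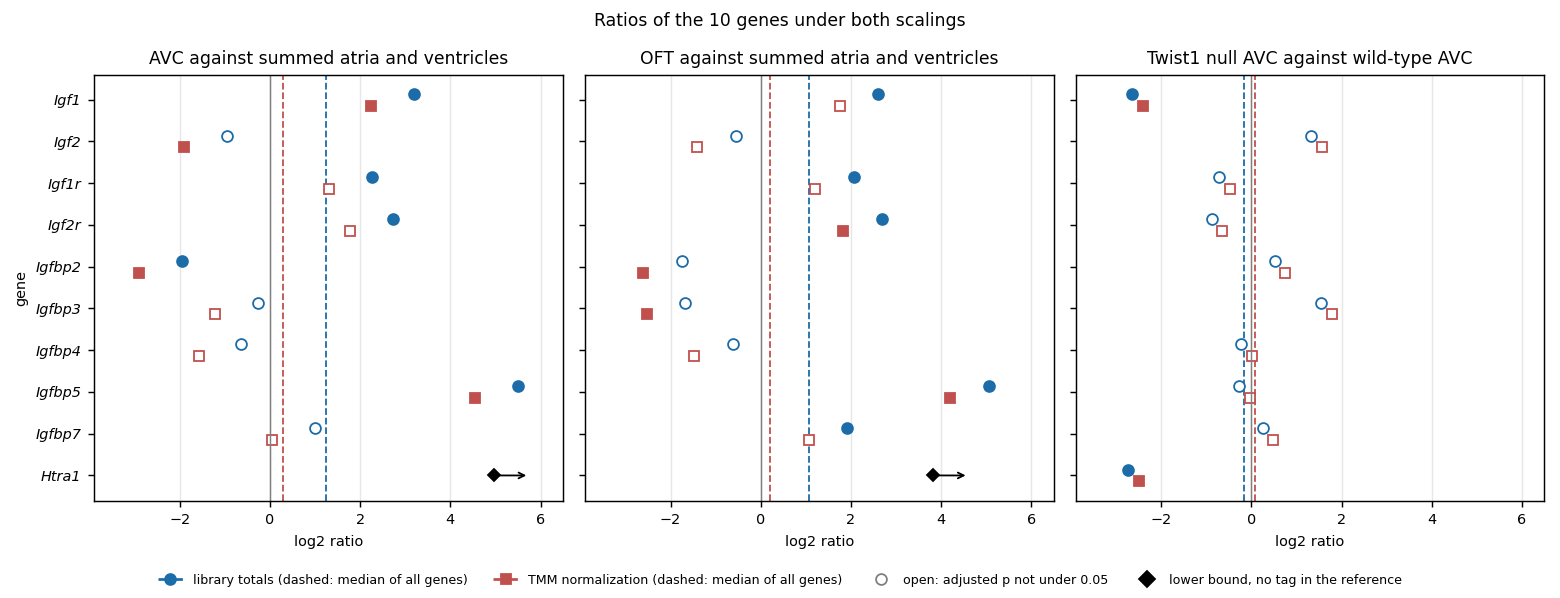
Log2 ratios of the 10 genes in 3 comparisons, by library totals (circles) and after TMM normalization (squares), filled where the adjusted p was under 0.05; dashed lines are the medians of all genes and diamonds with arrows are lower bounds. The TMM squares lie left of the circles for the AVC and OFT, by about the distance between the dashed lines, and the Twist1 null AVC shows Igf1 and Htra1 as its filled points.

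Igf2, the fetal growth factor that mice express from the paternal allele, had 1207 TPM in AVC (95% interval 1180 to 1235), 1591 in OFT, 2323 in atria, 2332 in ventricles and 3033 in Twist1 null AVC. Both cushion libraries of the wild type were thus lowest and the null AVC highest. The AVC to chamber log2 ratio of -0.95 was not called (adjusted p = 0.285), and the TMM ratio of -1.90 was (adjusted p = 0.0365). No neighbors in the order of the 5 libraries differed past the threshold. The gene lies on the minus strand at chr7:142650766-142666816 (GRCm38), and nearly all of its tags came from its last NlaIII site in the 3' UTR. That tag is shown because it carries the level of the gene, with the NlaIII site in capitals here and in each tag below:

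Igf2, last site, 3' UTR, chr7:142650833-142650853 (-): CATGcattttctggcaaaatc

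This tag was counted 6881 times in AVC, 7738 in OFT, 10666 in atria, 9750 in ventricles and 38891 in null AVC. The next site went the same way, from 15.5 TPM in AVC to 34.9 in atria and 23.7 in ventricles, while most sites further upstream were higher in the AVC. Of the 10 sense tag types with any count in the AVC or the chambers, 8 were called higher in the AVC when tag types were tested on their own, where 39.9% of 82951 tag types were called higher and 14.6% lower. Tag types not listed in a library entered with no tags. Since the atria listed 3 Igf2 types and the ventricles 2, most of these types could only come out higher. A tag of the coding exon is shown beside the last-site tag for contrast:

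Igf2, coding exon, chr7:142653919-142653939 (-): CATGcttgccaaagagctcaa

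It was counted 45 times in AVC, 86 in OFT and 15 in null AVC, and was not listed in the atria or ventricles. Sites that are last in some annotated transcript gave 94.4% of Igf2 tags in AVC and 93.4% in the OFT, and 98.4%, 99.0% and 98.9% in the atria, ventricles and null AVC. The 6 liver and yolk sac endoderm markers, from tissues rich in Igf2, were all at 0 in ventricles, and summed to 14.6 TPM in AVC, 6.45 in OFT, 56.1 in atria and 5.47 in null AVC. Unmatched tags 1 base away from an Igf2 tag amounted to 14.4% of its count in the atria and 12.4% in the ventricles, against 2.14% in the AVC, and adding them changed no call.

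Igf1, the ligand that acts through IGF1R, showed the reverse distribution. It had 205 TPM in AVC (95% interval 194 to 217), 137 in OFT, 16.5 in atria (13.0 to 20.6), 28.9 in ventricles and 32.9 in Twist1 null AVC. The wild-type cushion libraries stood apart from the other 3. The AVC was 9.16-fold above the summed chambers (log2 3.19, or 1.96 above the median gene, adjusted p = 4.15e-04, and 0.0144 with TMM). The OFT was 6.11-fold above them (adjusted p = 0.00354), and TMM took this to an adjusted p of 0.0555. In the order of levels, the OFT and the null AVC were the neighbors that differed (adjusted p = 0.0479, and 0.0654 with TMM), in a pair of libraries where 13.1% of all genes were called.

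Igf1 lies at chr10:87858265-87937042 on the plus strand, and an NlaIII site in a coding exon gave tags of 2 spliced forms. From this site the cDNA reads into either of 2 following exons, and the last bases of the tag differ:

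Igf1, joined to the far exon, chr10:87913782-87930676 (+): CATGcccaagactcagaagga
Igf1, joined to the near exon, chr10:87913782-87915299 (+): CATGcccaagactcagaagtc

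The tag of the far exon comes from transcripts that skip the near exon, and the forms encode different E peptides at the end of the IGF1 precursor. The far exon was joined in 324 tags in AVC, 230 in OFT, 17 in atria, 15 in ventricles and 56 in Twist1 null AVC. The near exon was joined in 88, 67, 8, 0 and 24 tags in the same libraries. Its share was 21.4% in the AVC (exact 95% interval 17.5 to 25.6), 22.6% in the OFT (17.9 to 27.7) and 30.0% in the null AVC (20.3 to 41.3). By Fisher's exact test on the tags, the AVC and OFT gave p = 0.713 and the null AVC and AVC p = 0.108, so no difference in this share was detectable. The test and these intervals compare single libraries and cover counting error only, since PCR copies are not independent. The site is number 21 of 22 from the 3' end in the longest transcript with the far tag. In the longest transcript with the near tag it is number 2 of 3. The shares thus also depend on digestion and on the 3' end used, and are not splice proportions. The atria and ventricles had 25 and 15 tags at this site, too few to compare. Both tags were higher in the AVC than in the chambers, with adjusted p of 5.56e-05 and 1.85e-04 over all tag types.

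Igf1r encodes the signaling receptor of both ligands. It reached 101 TPM in AVC, 88.5 in OFT, 16.3 in atria, 26.5 in ventricles and 61.8 in Twist1 null AVC. Both cushion libraries were highest, the null AVC lay between, and no neighbors in this order differed past the threshold. The AVC was 4.79-fold above the chambers (adjusted p = 0.0107) and the OFT 4.18-fold (adjusted p = 0.0203), and with TMM neither was called (adjusted p = 0.161 and 0.196). The ratio came mainly from sites upstream of the last one. The tag of the last site, on the plus strand near the end of the gene at chr7:67952827-68233668, is set beside an upstream tag of the same 3' UTR:

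Igf1r, last site, 3' UTR, chr7:68233634-68233654 (+): CATGgattaagttaaataaaa
Igf1r, upstream site, 3' UTR, chr7:68226645-68226665 (+): CATGggcctctgcaaacctta

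The last site gave 36.5 TPM in AVC, 41.6 in OFT, 16.3 in atria, 25.1 in ventricles and 26.7 in null AVC. The upstream site gave 20.1, 11.4 and 6.63 TPM in AVC, OFT and null AVC, and was not listed in the chambers. Counting the 3'-most tags only, log2 ratios to the chambers were 0.84 in AVC (adjusted p = 0.357) and 1.02 in OFT (adjusted p = 0.259). Across all genes, sites that are 3'-most in some annotated transcript gave 70.5% of AVC tags and 69.1% of OFT tags. They gave 80.3% for atria, 74.8% for ventricles and 67.5% for null AVC.

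Igf2r, the receptor that clears IGF2 and that mice express mainly from the maternal allele, had 276 TPM in AVC, 270 in OFT, 43.5 in atria, 40.0 in ventricles and 150 in Twist1 null AVC. The AVC and OFT were nearly level, and the chambers were lowest. The AVC was 6.60-fold (adjusted p = 0.00219) and the OFT 6.45-fold (adjusted p = 0.00261) above the chambers, and under TMM the adjusted p was 0.0524 in AVC and 0.0441 in OFT. Among neighbors in the order of levels, the null AVC and the atria differed (adjusted p = 0.0457, and 0.333 with TMM), where 38.1% of all genes did. Its tags are on the minus strand of chr17:12682406-12769664:

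Igf2r, last site, 3' UTR, chr17:12683076-12683096 (-): CATGcacaggtccccgagtgc
Igf2r, coding exons, spliced, chr17:12694148-12695289 (-): CATGggaactcctaagctgat

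The last-site tag was counted 1053 times in AVC, 942 in OFT, 203 in atria, 169 in ventricles and 1640 in null AVC. It was the only Igf2r tag type in both chambers, while the AVC held 22 sense tag types, the OFT 19 and the null AVC 3. The spliced coding tag was counted 76 times in AVC and 20 in OFT and was listed in no other library. Unlike Igf1r, Igf2r kept its call with the 3'-most site alone, at log2 ratios of 2.05 in AVC (adjusted p = 0.0186) and 2.10 in OFT (adjusted p = 0.0170), although 3'-most tags and TMM together gave 1.10 and 1.28 and no call.

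**Figure D3:**
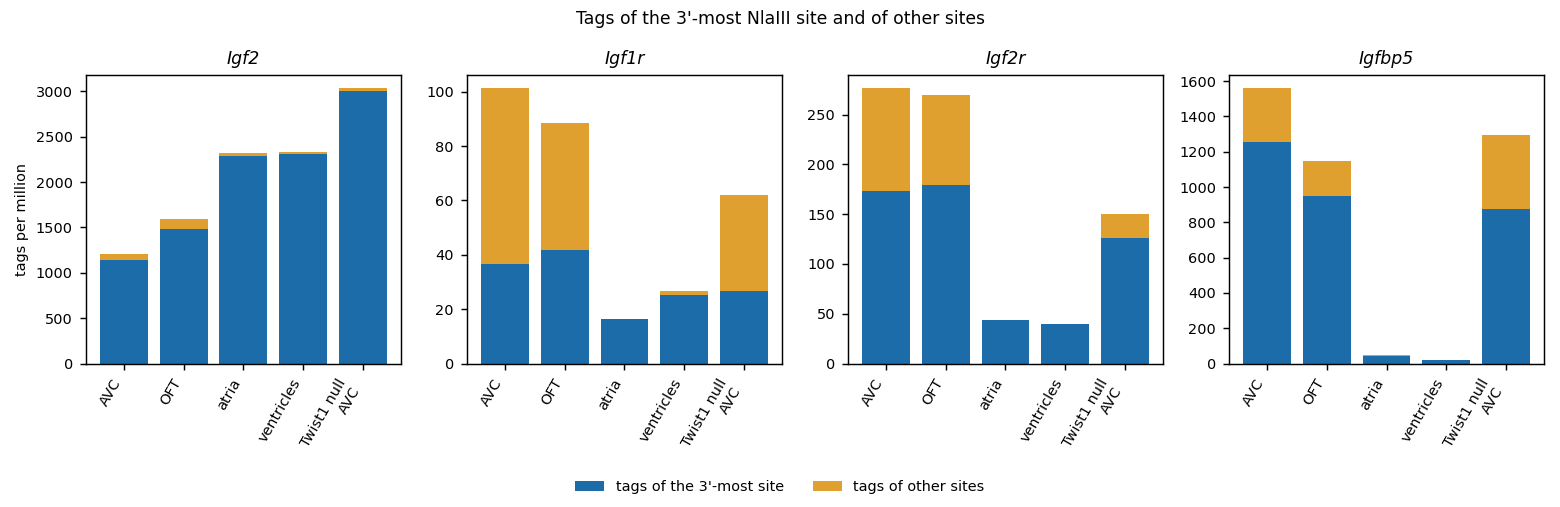
TPM from NlaIII sites that are 3'-most in some annotated transcript (blue) and from all other sites (yellow) of 4 genes in the 5 libraries. Stacked bars start from 0, with a scale of its own for each gene. Igf1r and Igf2r have yellow parts in the AVC, OFT and null AVC and almost none in the chambers, whereas Igfbp5 differs between cushions and chambers in the blue part as well.

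Igfbp5, which binds IGFs and also extracellular matrix, had the largest ratio between cushions and chambers among the members with tags on both sides. Among all genes its log2 ratio lay at percentile 85.2 in the AVC and 85.1 in the OFT. Its level was 1559 TPM in AVC (95% interval 1528 to 1591), 1150 in OFT, 49.7 in atria (43.5 to 56.5), 17.5 in ventricles (13.8 to 22.0) and 1296 in Twist1 null AVC. The 3 cushion-region libraries were far above both chambers. The AVC was 45.3-fold above the summed chambers (log2 5.50, or 4.27 above the median gene, adjusted p = 2.84e-08) and the OFT 33.4-fold (log2 5.06, adjusted p = 1.94e-07). Both calls were made in all 18 alternatives run, with log2 ratios from 4.35 to 6.47 in AVC and from 4.08 to 6.03 in OFT. The step from the OFT down to the atria was called (adjusted p = 1.65e-06, in a pair where 42.3% of genes were), and the atria and ventricles did not differ past the threshold (2.84-fold, adjusted p = 0.243). Igfbp5 lies on the minus strand at chr1:72857932-72874884, and its main tag comes from the last site in the 3' UTR:

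Igfbp5, last site, 3' UTR, chr1:72858943-72858963 (-): CATGgcaacctcccaaccacc

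This tag was counted 7627 times in AVC, 5006 in OFT, 210 in atria, 74 in ventricles and 11338 in null AVC. When tested by tag type, 16 of 16 sense tag types were higher in the AVC than in the chambers, and 14 of 14 in OFT, where 39.9% of 83302 tag types were called higher and 13.9% lower. Tag types not listed in a library entered with no tags. Since the atria listed 3 Igfbp5 types and the ventricles 1, most of these types could only come out higher.

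Igfbp2, a binding protein of fetal tissues, was lower in the cushion libraries than in the chambers. It had 12.0 TPM in AVC, 13.9 in OFT, 33.0 in atria, 62.0 in ventricles and 17.2 in Twist1 null AVC. The ventricles were highest. The AVC was 3.89-fold below the chambers (log2 -1.96, adjusted p = 0.0303, and 0.00196 with TMM), and with the atria alone as reference the adjusted p was 0.109. The OFT was 3.38-fold below the chambers (adjusted p = 0.0506, and 0.00507 with TMM). No neighbors in the order of levels differed past the threshold. All of its sense tags were of 1 type from the last site:

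Igfbp2, last site, 3' UTR, chr1:72852259-72852279 (+): CATGtatttatatttggaaag

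The first base after the site is T. In 793 genes with enough tags of both kinds, the AVC to chamber log2 ratio was lower by a median of 0.93 for T-first tags than for tags of that gene with another first base, so this call stands on a tag of the kind that was lower in general.

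Igfbp3, the main carrier of IGFs in adult serum, was low in all libraries. Its 1 tag type was counted 37 times in AVC, 12 in OFT, 39 in atria, 26 in ventricles and 232 in Twist1 null AVC, or 6.09, 2.28, 8.36, 6.16 and 17.9 TPM. The null AVC had the most, and it differed from the OFT, the lowest (adjusted p = 0.0109), while neighbors did not differ past the threshold. Neither cushion library was called against the chambers (adjusted p = 0.834 in AVC and 0.113 in the OFT), although the OFT was under TMM (log2 -2.53, adjusted p = 0.0200).

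Igfbp4, an inhibitory binding protein that is cleaved by the protease PAPP-A, varied least. It had 133 TPM in AVC, 134 in OFT, 178 in atria, 237 in ventricles and 114 in Twist1 null AVC, and no pair of libraries differed past the threshold. The AVC to chamber log2 ratio was -0.64 (adjusted p = 0.494) and that of the OFT -0.62 (adjusted p = 0.511). Most of its tags came from the seventh of 12 sites counted from the 3' end, and no tag of the last site was assigned to it. Of its 12 virtual tags 1 is shared with other genes and was left out, with 9241 tags over the 5 libraries, so the level may miss tags of that site. The main tag is shown:

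Igfbp4, site 7 from the 3' end, 3' UTR, chr11:99052426-99052446 (+): CATGaagtcaccaggatgact

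This tag held 91.1% of Igfbp4 tags in the AVC and 100% in the ventricles.

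Igfbp7, a secreted relative that binds IGFs weakly and is abundant in vessels, had 40.2 TPM in AVC, 76.1 in OFT, 17.4 in atria, 23.2 in ventricles and 47.6 in Twist1 null AVC. The OFT was highest. It was 3.78-fold above the chambers (adjusted p = 0.0313), but 0.85 above the median gene on the log2 scale, and was not called with TMM (adjusted p = 0.263) or against the ventricles alone (adjusted p = 0.0610). The AVC was not called (1.99-fold, adjusted p = 0.273). As for Igfbp2, nearly all tags were of a type that starts with T:

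Igfbp7, last site, 3' UTR, chr5:77349266-77349286 (-): CATGtagctttaaacaaaaca

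The summed endothelial and endocardial markers stood at 424 TPM in AVC, where Emcn was not listed, 477 in OFT, 180 in atria, 243 in ventricles and 492 in null AVC, and their part in the Igfbp7 difference was not tested.

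Htra1, a secreted serine protease that can cleave binding proteins including IGFBP5, was listed in the cushion-region libraries alone. It had 70.3 TPM in the AVC (95% interval 63.8 to 77.3), 31.9 in the OFT (27.3 to 37.1) and 10.6 in the Twist1 null AVC (8.86 to 12.5), and no tag in the atria or ventricles. Since up to 5 tags of a type go unlisted, the AVC was at least 31.2-fold above the chambers and the OFT at least 14.2-fold. The exact tests entered the chambers with no tags (adjusted p = 3.27e-11 and 5.58e-09). Both calls were made in all 18 alternatives. The step from the null AVC down to the atria was called (adjusted p = 1.22e-05), and the AVC and OFT did not differ past the threshold (adjusted p = 0.687). Nearly all of its tags came from the last site, at the end of the gene at chr7:130936111-130985660:

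Htra1, last site, 3' UTR, chr7:130985480-130985500 (+): CATGgtcttgggcgtgtttac

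AVC tissue gave 409 counts of it, OFT tissue 168, either chamber none and null AVC tissue 118.

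The Twist1 null AVC of the ICR strain was compared with the wild-type AVC of the C57BL/6 strain. Genotype and strain cannot be told apart in the differences that follow. Igf1 and Htra1 were lower in the null AVC, and the other 8 members were not called in either direction. Thus 2 of 10 members were called lower, where the test called 3.94% of 12966 genes lower and 5.06% higher, and the median gene had a log2 ratio of -0.16. Igf1 was 6.23-fold lower (log2 -2.64, adjusted p = 0.0160, and 0.0252 with TMM), and Htra1 was 6.66-fold lower (log2 -2.73, adjusted p = 0.0145, and 0.0206 with TMM). TMM called 3.07% of genes lower and 6.25% higher. The summed cushion mesenchyme markers other than Twist1 were 3.21-fold lower, at 259 TPM in the null AVC against 829, and their part in both results was not tested. Most of this sum was Sox9 (514 and 114 TPM in wild-type and null AVC) and Postn (145 and 29.0), while Msx1 stood at 92.3 and 61.0 and Pdgfra at 35.2 and 35.8. At a dispersion of 0.4 in place of 0.12 neither was called (adjusted p = 0.790 and 0.767).

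The fall of Igf1 was seen in its most counted tags. Of its 13 sense tag types 10 were called lower in the null AVC and 1 higher, where 16.5% of 96941 tag types were called lower and 20.5% higher. The null AVC listed 8 types and the wild-type AVC 12, and unlisted types entered with no tags. Types listed in the wild-type AVC alone could thus only come out lower, and tag types of 1 gene are not separate evidence. The tag joined to the far exon went from 53.3 to 4.32 TPM, a 12.4-fold fall (adjusted p = 2.62e-04), and that joined to the near exon from 14.5 to 1.85 TPM (7.83-fold, adjusted p = 0.00510). A tag of the 3' UTR at chr10:87934178-87934198 (+) went from 62.2 to 8.55 TPM (adjusted p = 0.00350):

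Igf1, 3' UTR, lower in the null AVC: CATGaaaccatctcataccct

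The last-site tag of Htra1 went from 67.3 to 9.09 TPM (adjusted p = 0.00316). Its upstream tag, with 18 counts in the AVC and 19 in the null AVC, was not called.

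Igf2 was 2.51-fold higher in the null AVC and Igfbp3 2.94-fold higher, and neither was called (adjusted p = 0.238 and 0.198). Igfbp2 and Igfbp7 had log2 ratios of 0.52 and 0.25, and Igf1r, Igf2r and Igfbp4 had -0.71, -0.88 and -0.22, none of them called. For Igf2r 16 of 22 sense tag types were called lower and none higher, all 16 upstream of the last site, against 16.5% of all tag types called lower. The null AVC listed 3 of these types. The others entered with no tags there, so they could only come out lower. The last-site tag went from 173 to 126 TPM and was not called (adjusted p = 0.609).

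Igfbp5 as a whole was close to level between the null and wild-type AVC (1296 and 1559 TPM, log2 -0.27, adjusted p = 0.866), while single tags moved in both directions. Of 16 sense tag types 3 were called higher and 8 lower in the null AVC, where 20.5% of all tag types were called higher and 16.5% lower, so the number higher is close to the background. The null AVC listed 11 of these types, and the others could only come out lower. The last-site tag was not called (1255 and 874 TPM, adjusted p = 0.550). The tags called higher are printed because they change against the rest of the gene, and those of sites 2 and 3 lie immediately upstream of the last site:

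Igfbp5, site 2 from the 3' end, 3' UTR, chr1:72858987-72859007 (-): CATGgtaacatcctcaccatc
Igfbp5, site 3 from the 3' end, 3' UTR, chr1:72859000-72859020 (-): CATGacttatctccatggtaa
Igfbp5, site 14 from the 3' end, 3' UTR, chr1:72861470-72861490 (-): CATGtagactttataggcata

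The tag of site 2 went from 112 counts in the wild-type AVC to 2704 in null AVC, or 11.3-fold in TPM (adjusted p = 2.98e-04), and had 77 in OFT. The tag of site 3 went from 7 to 425 counts (28.4-fold, adjusted p = 9.23e-06) and was not listed in the OFT. The tag of site 14 went from 77 to 1363 counts (8.29-fold, adjusted p = 0.00183), with 22 in OFT. In the other direction, a tag of a coding exon and a tag of site 11 were listed in the wild type alone:

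Igfbp5, coding exon, site 19, chr1:72873955-72873975 (-): CATGacttgcgccctggcgga
Igfbp5, 3' UTR, site 11, chr1:72860543-72860563 (-): CATGagtctcctctgcccgac

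AVC tissue had 128 and 138 counts of them and OFT tissue 74 and 47, while neither was listed in the null AVC. Counts too low to be listed are possible there. Tags were matched exactly to RefSeq-linked transcripts, and the null AVC came from another strain than the wild type. Whether strain differences in sequence changed which tags of these sites were matched, for those called higher or lower, was not tested. Tags that start with T were higher in the null AVC, within a gene, by a median log2 of 1.50 (1816 genes), and 1 of the 3 tags called higher, that of site 14, starts with T.

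**Figure D4:**
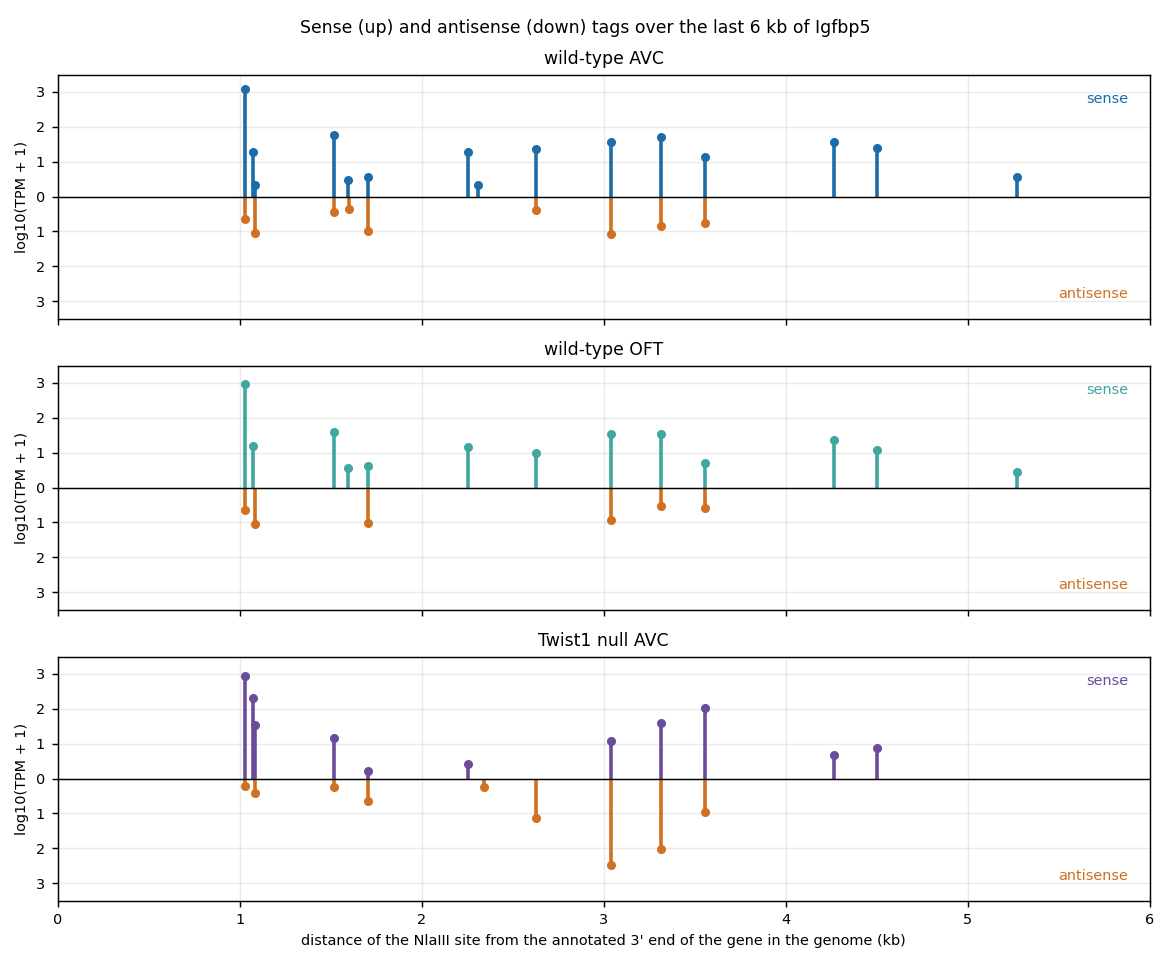
Sense tags (up) and antisense tags (down) of Igfbp5 in the wild-type AVC, the wild-type OFT and the Twist1 null AVC, as log10(TPM + 1), against the distance of the NlaIII site from the annotated 3' end of the gene in kilobases. The AVC and OFT panels have a similar outline, and the null panel has taller sense lines beside the last site and taller antisense lines just past 3 kb. The window is the last 6 kb of the gene.

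Antisense tags, which read away from a site of the gene on the other strand, were counted apart from the levels above. They made up 3.14% of sense and antisense Igfbp5 tags in AVC, 3.12% in OFT and 24.7% in null AVC tissue, while over all genes they made up 8.33%, 8.90% and 11.5%. The share over all genes also counts antisense tags that match several genes, which the share of a single gene leaves out. Most of the null AVC's antisense tags came from a pair of sites in the 3' UTR:

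Igfbp5, antisense, chr1:72860974-72860994 (+): CATGttagtttctctctgatc
Igfbp5, antisense, chr1:72861244-72861264 (+): CATGagaagatccaaatcggt

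The first went from 67 counts in the wild-type AVC to 3785 in null AVC (26.4-fold in TPM, adjusted p = 1.60e-06), and had 40 in OFT and none in the chambers. The second went from 36 to 1357 counts (17.6-fold, adjusted p = 2.91e-05), with 13 in OFT. The sense tags of the same sites did not rise. They went from 35.6 to 10.6 TPM and from 49.7 to 39.1 TPM, and neither was called. No gene is annotated on the opposite strand there in GENCODE M21, and the origin of these tags was not tested.

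**Figure D5:**
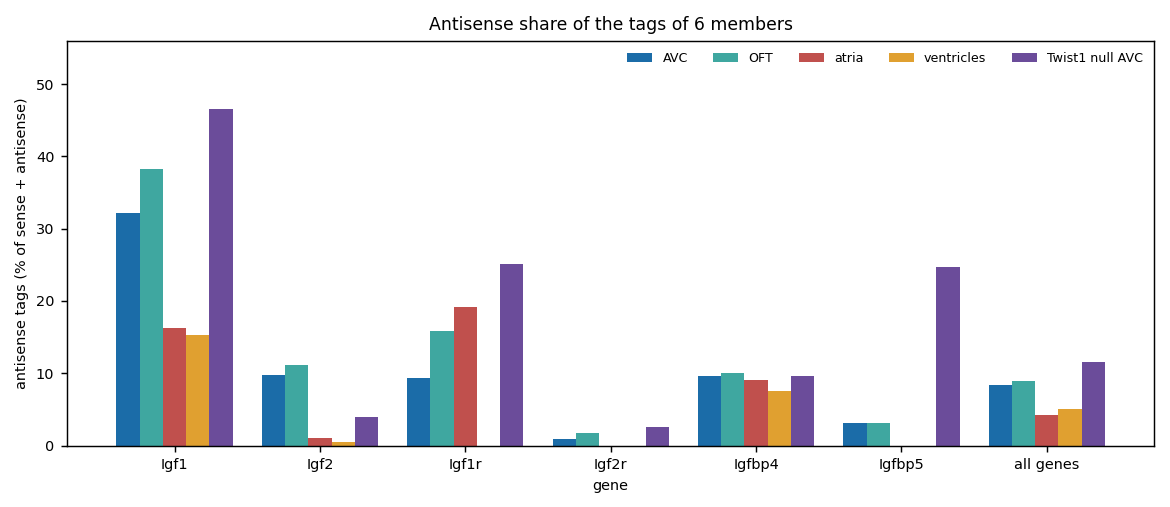
Antisense tags as a percent of sense and antisense tags together, for 6 of the genes and for all genes, in the 5 libraries. The bars of all genes also count antisense tags that match several genes. Igf1 has the tallest bars in every library but the atria, and Igfbp5 rises from about 3.1% in the wild-type AVC and OFT to 24.7% in the Twist1 null AVC.

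The AVC and OFT were compared with each other, and the ventricles with the atria, to see whether the genes separate regions of 1 kind. They did not at this threshold. Between OFT and AVC 0 of 10 members were called, where 1.24% of 12544 genes were called higher and 1.88% lower. None was past an unadjusted p of 0.05 either, which 5.22% of genes passed upward and 7.36% downward, and none with TMM (1.25% and 1.84% of genes) or DESeq2 size factors. The widest log2 ratios were -1.41 for Igfbp3 (adjusted p = 0.653), -1.14 for Htra1 (adjusted p = 0.687) and 0.92 for Igfbp7 (adjusted p = 0.920). Between ventricles and atria 0 of 9 members with tags were called, where 3.47% of 10707 genes were called higher and 2.8% lower, and none with TMM (2.43% and 3.61% of genes) or DESeq2 size factors. Igfbp5 alone had an unadjusted exact test p under the threshold (p = 0.0486), which 11.1% of genes passed upward and 9.04% downward. A missed threshold does not show that these libraries are alike.

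The wider IGF axis was followed through a list of 46 other genes, of which 35 had tags in AVC or the chambers. In the AVC 10 were called higher and none lower, against 35.6% and 5.53% of all genes, and in the OFT 8 higher and 1 lower, against 34.2% and 6.77%, so the shares called higher lie below the background. With TMM 5 were higher and 2 lower in either comparison. Of all genes, TMM called 19.4% higher and 11.9% lower in the AVC, and 20.1% and 12.1% in the OFT. The median log2 ratios of the list by library totals, 1.20 and 1.01, were close to those of all genes, 1.23 and 1.07. Gab1, a docking protein downstream of receptor kinases, had 100 TPM in AVC, 154 in OFT, 4.93 in atria and 2.37 in ventricles, so that the AVC was 27.0-fold (adjusted p = 1.61e-06) and the OFT 41.5-fold (adjusted p = 1.10e-07) above the chambers. Gsk3b, a kinase that is inhibited by AKT, had 86.2 TPM in AVC and 101 in OFT and no tag in the chambers, which puts the AVC at least 9.58-fold and the OFT at least 11.2-fold higher. The called genes with the smallest ratios in the AVC were Pdk1, a pyruvate dehydrogenase kinase (4.56-fold, adjusted p = 0.0131), and Tsc1, a brake on mTOR (4.45-fold, adjusted p = 0.0206), and neither was called with TMM. In the OFT Pdk1 was 3.40-fold higher (adjusted p = 0.0461, and 0.349 with TMM).

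Igfbpl1, a binding protein-like gene, was the list's only called decrease in the OFT. It had 13.5 TPM in AVC, 6.43 in atria, 31.5 in ventricles and 18.9 in null AVC, and no tag in the OFT. The OFT was at least 3.86-fold below the chambers and at least 2.84-fold below the AVC. The exact tests entered the OFT with no tags (adjusted p = 8.21e-07 and 8.48e-05), so they do not test these bounds. In the Twist1 null AVC 2 of 36 genes of the list were called higher and 1 lower, close to the 5.06% and 3.94% of all genes. Stc2, an inhibitor of PAPP-A, went from 1.15 to 10.2 TPM (8.83-fold, adjusted p = 0.0161). Its wild-type level lies near the smallest listed count of 6 tags (0.988 TPM), so unlisted tags could make this fold smaller. Htra2, a mitochondrial relative of Htra1, went from 6.25 to 56.7 TPM (9.07-fold, adjusted p = 0.00516). Pik3r2, a regulatory subunit of PI3 kinase, had 2.47 TPM in the wild-type AVC and no tag in the null AVC, at least 6.41-fold lower. Its exact test entered the null AVC with no tags (adjusted p = 0.0133) and does not test this bound. In these libraries the tags of Htra2 and Pik3r2 all start with T. Between ventricles and atria 1 gene of the list was called, Pdpk1, with 6.16 TPM in ventricles and no tag in the atria (adjusted p = 0.00726). Unlisted tags leave no fold above 1 as a bound there.

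Genes with the most similar distribution over the 5 libraries were found among 7021 genes with at least 20 TPM in some library, by the distance between centered log2(TPM + 1) values. With 5 libraries this is a description. Igfbp5 was closest to Rspo3, a secreted enhancer of Wnt signaling (distance 0.51), with 56.3 TPM in AVC, 61.9 in OFT, 1.71 in atria, 0 in ventricles and 70.8 in null AVC, and then to Ncam1 (0.81) and Slc44a2 (0.85), against a median distance of 5.18 over all genes. Htra1 was closest to Tns1, which encodes the focal adhesion protein tensin (0.25), with 57.1, 30.2, 0, 0 and 10.2 TPM in the same order, and to Cthrc1 (0.45) and Gfpt2 (0.49), with a median of 4.80. Igf2 was closest to Fam98a (0.11), Mrps12 (0.24) and Gbf1 (0.25), with a median of 2.20.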

How the data were processed

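Tag-seq libraries were made from oligo(dT)-bound cDNA cut with NlaIII and MmeI and amplified by PCR. The authors filtered the base calls, kept the first 21 bases of each read, and deposited for each of 5 libraries a raw count per tag type, for types seen more than 5 times. The labels name mm9, but the files hold no coordinates, so positions are those of GRCm38 (GENCODE M21).

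Tags were matched exactly to 315529 virtual tags of 33363 RefSeq-linked transcripts of 24297 genes, with 20 A's added at the 3' end of each transcript. Sense tags of 1 gene were summed, 70.7% to 74.6% of the tags in a library. Library totals of 4223810 to 12977237 tags set the precision, and a gene with no listed tag may have up to 5 tags of each type (0.385 to 1.18 TPM). Groups followed the labels. Counts were tested in edgeR 4.0.16 (R 4.3.3) by its exact test, two-sided, at a fixed dispersion of 0.12, the value the study used, and library totals, with Benjamini-Hochberg adjustment over all genes or all tag types. The replicate spread behind this dispersion was not measured here. In tests of genes and of tag types, a type not listed in a library entered with no tags, except in an alternative that entered 5. An adjusted p beside a lower bound thus belongs to a count of no tags, not to the bound. Lower bounds of a fold set each tag type of the gene seen in any library at 5 tags per library. TMM, DESeq2 1.42.0 size factors, other dispersions and filters, 3'-most tags, tags without T as first base and each chamber alone were the alternatives. The steps were tested on simulated data. Members and lists were chosen with earlier results of these data known. Of the 46 other genes, those named have the 2 highest and 2 lowest log2 ratios among the calls of a comparison.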

Additional observations from a re-analysis of the deposited data

Results flagged for a closer look

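Antisense tags of 4 genes stood above the libraries they were set against, in data that the levels above leave out. For Igfbp5 the antisense tags summed to 426 TPM in the Twist1 null AVC, 50.5 in wild-type AVC and 37.0 in OFT, with none listed for either chamber. Igf1 had 97.1 TPM of antisense tags in AVC and 85.0 in OFT, against 3.21 and 5.21 in atria and ventricles. Most of these came from a site at the end of the gene, chr10:87937013-87937033 (-), CATGattaattttaatgtaat, counted 389 times in AVC, 293 in OFT, 15 in atria, 22 in ventricles and 181 in the null AVC.

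Igf2 had 130 TPM of antisense tags in AVC and 199 in OFT, and 24.9 and 13.0 in atria and ventricles. Igf1r had 16.7 TPM in OFT and 20.7 in the null AVC, where wild-type AVC had 10.4 and atria 3.86. Over all genes antisense tags, with those that match several genes, were 8.33% of sense and antisense tags in AVC and 8.90% in OFT. They were 4.27% in atria, 5% in ventricles and 11.5% in the null AVC. The origin of these tags was not tested.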

How the results depend on the processing

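Of 770 values of single genes under the alternatives, 680 kept their direction and side of the threshold, 25 passed it newly, 40 no longer passed it and 25 turned. At a dispersion of 0.4, members called fell from 6 to 2 in AVC and OFT and from 2 to 0 in the null AVC. At 0.05 they were 4 in the null AVC and 1 between ventricles and atria, where unadjusted p also gave 1. The shares of all genes called at these 2 dispersions are not given, so these counts cannot be set against a background. Without T-first tags and with TMM, 1 was called in the null AVC (Igf1), and Htra1 had an adjusted p of 0.0524. In AVC against chambers, 3'-most tags with TMM gave -0.11 for Igf1r and -0.013 for Igfbp7. In the null AVC, Igfbp4 gave 0.017 with TMM, 0.012 with DESeq2 size factors and 0.36 without T-first tags and with TMM, where Igfbp5 gave 0.21. Igfbp7 without T-first tags rested on 10 tags of the AVC and gave -6.98 with a call (adjusted p = 0.0295) and -6.61 with TMM, and in OFT against AVC -6.24 (-6.20). There Igf1r gave 0.19 (0.29 with TMM) with 3'-most tags, and Igf2r gave 0.050 with TMM and with DESeq2 size factors, 0.045 with 3'-most tags (0.15 with TMM), 0.048 in thinned libraries and 0.064 without T-first tags and with TMM. Between ventricles and atria Igf2 gave -0.32 with TMM, -0.31 with DESeq2 size factors, -0.28 without haemoglobin, -0.020 with 1-base-off tags, -0.0096 in thinned libraries, -0.30 for 3'-most tags with TMM and -0.24 without T-first tags and with TMM.

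TMM changed the counts over all genes from 4447 higher and 692 lower to 2426 and 1488 in AVC, and from 4253 and 843 to 2497 and 1513 in OFT. The 2 alternatives that join a tag filter with TMM and the tests of tag types on their own, 3 in all, were chosen after seeing the data. No paired analysis was possible because each group is 1 library. With 1 library per group there was no replicate to leave out, and depth limits low genes such as Igfbp3.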
